A study of Mus musculus with 11 samples.

Results

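The 8 genes described here make up the core of the MHC class II presentation pathway: H2-Aa, H2-Ab1, H2-Eb1, H2-DMa, H2-DMb1, Cd74, Ciita and Ctss. They were chosen by name from the 22608 genes of a heart RNA-seq table, and each was matched by its Ensembl identifier to the GENCODE M21 mouse annotation. All 8 were found in the table, and all 8 were among the 11319 genes that passed the filter on low counts. The study examined the complete deletion (CD) mouse, a model of Williams–Beuren syndrome that lacks 1 copy of the gene interval from Gtf2i to Fkbp6. CD mice and their wild-type (WT) littermates received JZL184, which blocks the breakdown of an endocannabinoid by monoacylglycerol lipase, or vehicle (VEH). RNA of each heart, labelled ventricle as its source, was sequenced as bulk tissue, so that many cell types were mixed in every value. The 11 hearts formed 4 groups: WT VEH with 2 mice, WT JZL184 with 3, CD VEH with 3 and CD JZL184 with 3. WT mice carry the strain label C57BL/6 and CD mice the label WBS-CD, and by the study's methods both were male littermates on a C57BL/6J background, aged 8 to 16 weeks. JZL184 was given by intraperitoneal injection at 8 mg/kg for 10 days. The GEO treatment label of the VEH mice reads untreated, whereas their titles and the methods give vehicle. Mice are named here by their group and by the letter in the table's column names.

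MHC class II molecules are pairs of an α and a β chain that carry peptides from engulfed proteins to the cell surface, where CD4+ T cells read them. The invariant chain Cd74 occupies the groove of a newly made pair, cathepsin S (Ctss) trims it to a short remnant, and H2-DM then exchanges that remnant for antigenic peptide. The transactivator Ciita switches on transcription of the class II chain, H2-DM and invariant chain genes together and is itself induced by interferon-γ. In the heart, macrophages and dendritic cells are the main carriers of class II, and activated endothelium can carry it too.

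Estimated counts totalled between 69660232 and 92251443 per heart. The members ranged from 121 to 239 counts per heart for Ciita up to 5383 to 13810 for Cd74. Values are given as CPM, that is counts relative to the library total after TMM scaling, so that hearts can be compared. The labels were checked on the deleted interval, where 14 of the 14 tested genes were lower in each of the 6 CD mice than in each of the 5 WT mice. Of 4 atrial marker genes, Myl7 had 3 to 38 counts per heart, Sln 0 to 13, Myl4 57 to 125 and Nppa, which stressed ventricles also express, 4082 to 15647. Together they summed to between 50.4 and 221 CPM, whereas the 6 ventricular cardiomyocyte markers summed to between 23185 and 32675 CPM. CD VEH mouse A stood apart in the 3 erythroid genes Hba-a1, Hbb-bs and Alas2, whose sum was 11768 CPM there and 884 to 3336 CPM in the other mice. Leaving that mouse out changed none of the 6 counts of members that passed the test. The labels give no separate batch, and p-values measure the spread between these mice.

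The promoter stretches of 4 members are shown because the class II promoters share a known layout, in which an X box (bound by RFX proteins) lies upstream of a Y box (an inverted CCAAT box bound by NF-Y) and Ciita docks on the proteins bound there. Promoter sequence was read from RefSeq, assembly GRCm38.p6, for 5 of the 8 members. Each line gives the 120 bases before the transcription start, from 5′ to 3′ on the gene's own strand. Capitals mark ATTGG (the Y box core), AACNNNTG where it precedes ATTGG as an X box, the palindrome TGACGTCA, and GAAANNGAA (the core of an interferon response element).
H2-Aa: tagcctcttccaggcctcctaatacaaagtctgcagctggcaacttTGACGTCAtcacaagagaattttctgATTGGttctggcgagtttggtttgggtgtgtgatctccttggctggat
H2-Eb1: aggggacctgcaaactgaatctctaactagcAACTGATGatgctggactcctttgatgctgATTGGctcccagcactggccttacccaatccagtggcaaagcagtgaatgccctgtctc
H2-DMb1: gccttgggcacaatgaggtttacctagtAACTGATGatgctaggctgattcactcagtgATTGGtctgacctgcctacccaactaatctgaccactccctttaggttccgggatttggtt
Ctss: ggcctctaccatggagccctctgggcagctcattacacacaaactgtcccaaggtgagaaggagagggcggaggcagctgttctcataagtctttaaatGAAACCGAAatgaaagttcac
The H2-Aa stretch is chr17:34287824-34287943 on the minus strand, that of H2-Eb1 chr17:34305747-34305866 and that of H2-DMb1 chr17:34153071-34153190, both on the plus strand, and that of Ctss chr3:95526666-95526785 on the plus strand. In H2-Eb1 and H2-DMb1 the X box form began 30 and 31 bases before ATTGG, which itself began at position −59 in H2-Eb1 and −61 in H2-DMb1, counted from the transcription start. H2-Aa had ATTGG at −48 and TGACGTCA at −74. Ctss, which encodes the protease and not a class II chain, had GAAANNGAA at −21 and no ATTGG in the 250 bases searched. The 2 RefSeq windows of H2-DMa, which begin at separate transcription starts, held no X box form, and ATTGG was found in 1 of them at −198.

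Searched on both strands of the 250 bases before the transcription start in 32851 RefSeq promoter entries, ATTGG was present in 33.85%, AACNNNTG in 30.98%, TGACGTCA in 1.55% and GAAANNGAA in 7.13%. An AACNNNTG that began 25 to 45 bases upstream of ATTGG on the same strand was present in 0.685% of them. The letters and the spacing were settled after these promoters had been read, and a match describes the sequence, not a bound site. These promoters were not assayed in the mice, and the matches are set beside the expression values only to show how the genes resemble or differ from each other.

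Levels of different genes were compared per kilobase of the principal transcript. Averaged over the 11 mice, the invariant chain gene Cd74 was the most abundant at 81.4 CPM per kb, followed by the α chain gene H2-Aa at 57.6, the β chain genes H2-Ab1 at 34.4 and H2-Eb1 at 28.8, and the protease gene Ctss at 13.1. The 2 genes of the peptide editor lay lower, with H2-DMb1 at 3.16 and H2-DMa at 2.78 CPM per kb, and the transactivator gene Ciita was lowest at 0.348. This order held in 11 of 11 mice for each pair of neighbours except H2-DMb1 and H2-DMa, where H2-DMb1 was the higher in 9 of 11. The order depends on the transcript length used: over all annotated exons merged, H2-Eb1 stood at 24.7, above H2-Aa at 17.1 and H2-Ab1 at 16.2 CPM per kb. C57BL/6 mice are known to make no Eα chain, and the Eα gene (H2-Ea-ps) was looked for but was not in the table. The H2-Eb1 values therefore describe a β chain transcript whose usual partner was not measured.

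The α chain gene H2-Aa, at chr17:34282744-34287823, was expressed at 40.5 and 44.0 CPM in the WT VEH mice C and D. It reached 63.5, 112 and 88.6 CPM in the WT JZL184 mice A, B and D, and 61.1, 64.9 and 93.8 CPM in the CD VEH mice A, C and E. In the CD JZL184 mice A, C and E it was 49.2, 49.8 and 47.8 CPM. Both vehicle-treated WT hearts were thus the lowest of all, the treated CD hearts came next and lay close together, and all 6 hearts of the other groups lay above them.

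H2-Ab1, which encodes the β chain that pairs with H2-Aa, followed at 26.3 and 30.5 CPM in WT VEH. Its values were 35.1, 71.1 and 55.3 CPM in WT JZL184, 36.6, 42.6 and 60.1 CPM in CD VEH and 32.4, 36.7 and 32.0 CPM in CD JZL184. Here the lowest WT JZL184 mouse and the lowest CD VEH mouse each fell within the range of the treated CD mice. H2-Eb1, the β chain gene of the E molecule, was at 29.6 and 34.1 CPM in WT VEH, at 44.4, 83.1 and 64.7 CPM in WT JZL184, at 43.3, 49.5 and 68.8 CPM in CD VEH and at 34.8, 40.3 and 35.9 CPM in CD JZL184. Its WT JZL184 and CD VEH mice all exceeded its CD JZL184 mice, which in turn exceeded both WT VEH mice. The 3 chain genes kept nearly constant proportions, since the CPM ratio of H2-Aa to H2-Ab1 ranged from 1.36 to 1.81 and that of H2-Eb1 to H2-Ab1 from 1.07 to 1.27 over the 11 mice.

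Cd74 was measured at 77.8 and 89.7 CPM in WT VEH, 101, 191 and 159 CPM in WT JZL184, 94.9, 111 and 153 CPM in CD VEH and 87.2, 104 and 92.7 CPM in CD JZL184. The CD JZL184 values of the invariant chain gene overlapped those of the other 3 groups. Ctss stood at 11.6 and 15.1 CPM in WT VEH, 16.8, 28.7 and 24.7 CPM in WT JZL184, 18.5, 17.7 and 25.3 CPM in CD VEH and 12.5, 14.1 and 11.1 CPM in CD JZL184. For the cathepsin S gene the high pair of groups was separated from the low pair without overlap. Cd74 made up 36.1 to 41.2% of the summed CPM of the 7 members other than Ciita in every heart.

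The peptide editor genes also had higher means in WT JZL184 and CD VEH than in the other groups. H2-DMa was at 3.08 and 3.23 CPM in WT VEH, 3.91, 7.86 and 6.46 CPM in WT JZL184, 4.40, 4.28 and 6.34 CPM in CD VEH and 3.61, 3.91 and 3.67 CPM in CD JZL184. WT JZL184 mouse A was level with the highest treated CD mouse for this α subunit gene. H2-DMb1, the β subunit gene, was at 3.24 and 3.34 CPM in WT VEH, 4.68, 7.96 and 5.36 CPM in WT JZL184, 4.14, 4.14 and 5.17 CPM in CD VEH and 3.22, 3.95 and 3.61 CPM in CD JZL184. All its WT JZL184 and CD VEH mice lay above all mice of the other groups. Of the 1374 different 31-base words in the H2-DMb1 transcript, 37.6% also occur in transcripts of another gene, above all H2-DMb2, so its counts are less certain than those of the other 7 members, for which the share was at most 1.70%. H2-DMb2 itself had 23 to 51 counts per heart and was under the filter.

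Ciita did not share this pattern. The transactivator gene was at 2.37 and 2.17 CPM in WT VEH, 1.75, 2.50 and 2.75 CPM in WT JZL184, 1.45, 1.73 and 1.89 CPM in CD VEH and 2.25, 2.09 and 2.03 CPM in CD JZL184. Its lowest group was CD VEH, where the other members were high, and its WT JZL184 mice spanned the values of WT VEH and CD JZL184.

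**Figure D1:**
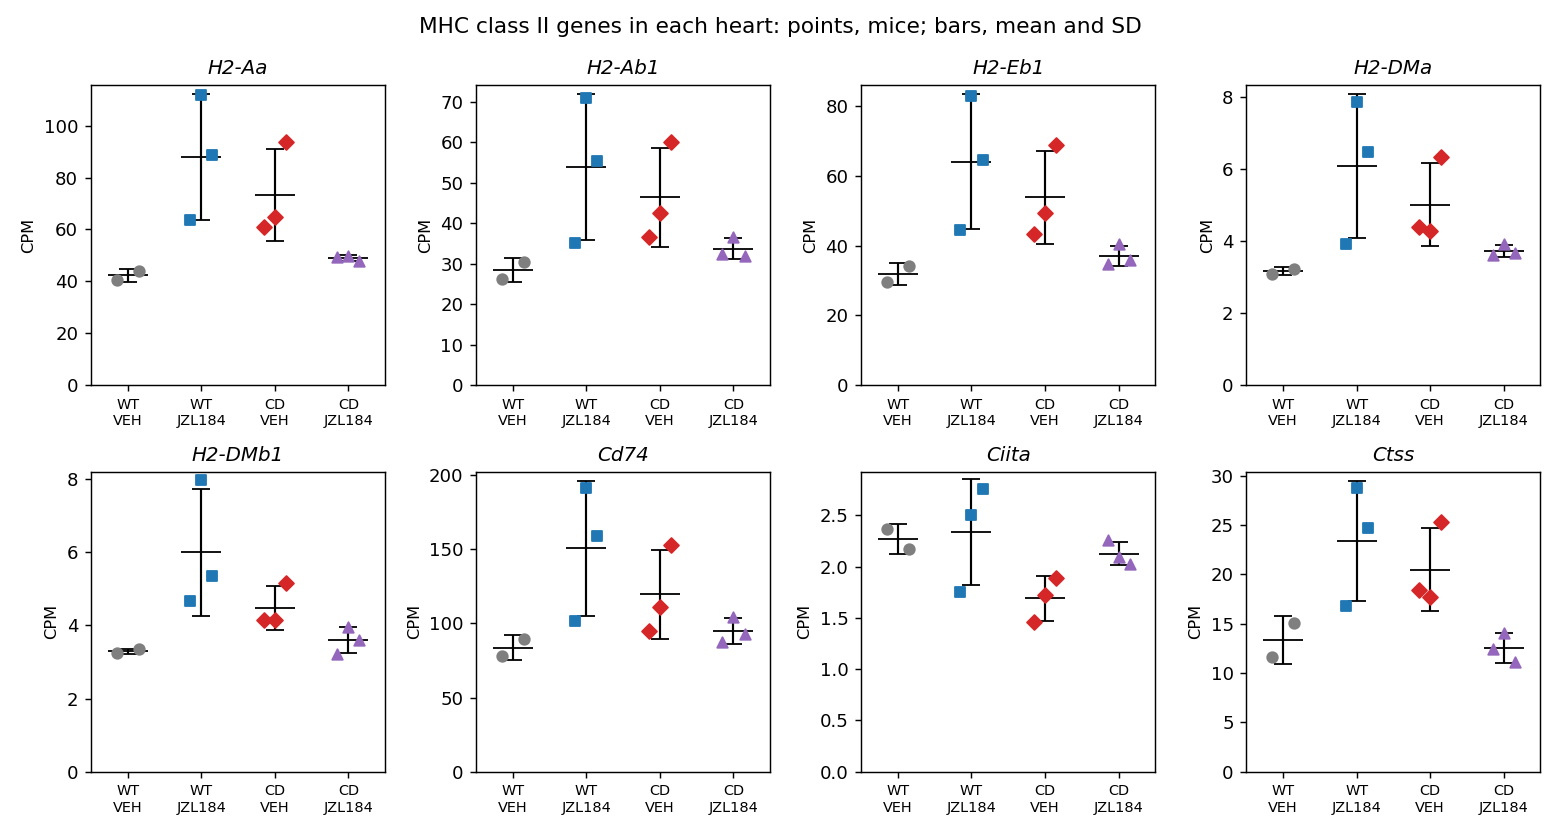
Expression of the 8 class II genes in each heart, in CPM on a linear axis that starts at 0, with 1 point a mouse and bars for the group mean and SD (2 WT VEH mice, 3 in each other group). In 7 panels the WT JZL184 and CD VEH means lie above the WT VEH and CD JZL184 means, whereas the CD VEH points of Ciita (1.45 to 1.89 CPM) lie below those of both low groups.

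The first comparison asked how CD hearts differ from WT hearts without treatment. In CD VEH hearts 3 of the 8 members were higher than in WT VEH hearts at an adjusted p under 0.05 in edgeR's quasi-likelihood test, and none was lower. Over all tested genes 15% were called higher and 15.4% lower. H2-Aa rose by a log2 fold change of 0.79 (SE 0.21, adjusted p = 0.0177), H2-Eb1 by 0.76 (SE 0.23, adjusted p = 0.0301) and Ctss by 0.62 (SE 0.22, adjusted p = 0.04997). Ctss lay just under the threshold and was called in 8 of 20 alternative fits. H2-Ab1 (0.71, adjusted p = 0.0531), H2-DMa (0.67, 0.0627), Cd74 (0.51, 0.116) and H2-DMb1 (0.44, 0.112) had positive log2 fold changes that missed the threshold. Ciita had a log2 fold change of −0.42 (SE 0.18, adjusted p = 0.0985), with all 3 CD VEH mice below both WT VEH mice. The CPM values of the 2 groups did not overlap for 8 of the 8 members, while 64% of all tested genes did not overlap either. The median log2 fold change of the members was 0.64, beside 0.01 over all tested genes. The count of members called was 0 when CD VEH mouse E, WT VEH mouse C or WT VEH mouse D was left out, 7 without WT JZL184 mouse A and 6, all higher, without WT JZL184 mouse B. Without WT JZL184 mouse A, Ciita was among the 7 and was called lower (−0.43, adjusted p = 0.0317).

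The second comparison asked what JZL184 did in WT hearts. With treatment 7 of the 8 members rose, against 15.4% of all tested genes called higher and 14% called lower. H2-Aa had the largest log2 fold change of the members at 1.06 (SE 0.21, adjusted p = 0.00627), which is a 2.08-fold difference. H2-Eb1 rose by 1.01 (adjusted p = 0.0104), H2-DMa by 0.94 (0.0177), H2-Ab1 by 0.92 (0.0210), H2-DMb1 by 0.86 (0.0107), Cd74 by 0.85 (0.0222) and Ctss by 0.81 (0.0187). Ciita differed by 0.04 (SE 0.18, adjusted p = 0.868), and its 2 WT VEH values lay inside the range of the 3 treated mice. The members' median was 0.89, beside −0.00264 over all tested genes. The 2 WT VEH mice and WT JZL184 mouse B weighed heavily: the count fell to 0 without WT VEH mouse C, 1 without WT VEH mouse D and 3 without WT JZL184 mouse B. This comparison and the first share the same 2 WT VEH mice.

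The third comparison asked what JZL184 did in CD hearts. Treated CD hearts had lower values than CD VEH hearts for 2 of the 8 members, and none was higher, while 17% of all tested genes were called lower and 16.8% higher. Ctss fell by 0.71 on the log2 scale (SE 0.19, adjusted p = 0.0163) and H2-Aa fell by 0.58 (SE 0.19, adjusted p = 0.0315). The remaining class II genes had log2 fold changes of −0.54 for H2-Eb1 (adjusted p = 0.0582), −0.46 for H2-Ab1 (0.125), −0.42 for H2-DMa (0.147), −0.34 for Cd74 (0.226) and −0.32 for H2-DMb1 (0.180). Ciita again had the opposite sign at 0.33 (SE 0.16, adjusted p = 0.137), and its 3 treated mice were all above its 3 CD VEH mice. The median over members was −0.44, beside −0.0024 over all tested genes. Without CD VEH mouse E or CD JZL184 mouse E no member passed the test, without CD JZL184 mouse A or C 1 passed, and without WT JZL184 mouse A 6 passed, among them Ciita, which was called higher (0.34, adjusted p = 0.0455).

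Treated CD hearts were next compared with treated WT hearts. In CD JZL184 hearts 7 of the 8 members were lower, beside 20.1% of all tested genes called lower and 18.2% called higher. The log2 fold changes were −0.90 for Ctss (adjusted p = 0.00433), −0.85 for H2-Aa (0.00511), −0.79 for H2-Eb1 (0.0109), −0.74 for H2-DMb1 (0.00765), −0.70 for H2-DMa (0.0243), −0.67 for H2-Ab1 (0.0322) and −0.67 for Cd74 (0.0256). Ciita had a value of −0.14 (adjusted p = 0.524). The mice of the 2 groups overlapped in CPM for H2-DMa, H2-Ab1 and Cd74, where WT JZL184 mouse A lay within or next to the CD JZL184 range, and for Ciita. The count was 4 without CD JZL184 mouse A, CD JZL184 mouse E, WT JZL184 mouse B or WT JZL184 mouse D.

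Treated CD hearts were also set against WT VEH hearts, the pair of groups in which 7 of the members were low. None of the 8 members passed the test, at an unadjusted p under 0.05 the count was also 0, and DESeq2 called 0. With only these 2 groups in the fit, 4 members had an unadjusted p under 0.05 and 0 passed after adjustment. Few genes of any kind passed here, with 0.0442% of all tested genes called higher and 0.141% lower by edgeR. The members' log2 fold changes lay between −0.09 for Ciita and 0.25 for H2-Ab1, with standard errors of 0.18 to 0.25. H2-Aa, H2-Eb1, H2-Ab1 and H2-DMa were higher in each of the 3 treated CD mice than in both WT VEH mice, with log2 fold changes of 0.21, 0.22, 0.25 and 0.24. In this comparison 36.6% of all tested genes had no overlap between the 2 groups.

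Whether JZL184 acted differently in the 2 genotypes was tested by the interaction, which is the log2 fold change of JZL184 in CD mice minus that in WT mice. It was called below 0 for 7 of the 8 members, while 26.2% of all tested genes were called in that direction and 25.3% in the other. H2-Aa had the largest interaction at −1.64 (SE 0.28, adjusted p = 0.000782), followed by H2-Eb1 at −1.55 (0.00179), Ctss at −1.51 (0.00139), H2-Ab1 at −1.38 (0.00547), H2-DMa at −1.37 (0.00525), Cd74 at −1.18 (0.00871) and H2-DMb1 at −1.18 (0.00366). Ciita had an interaction of 0.29 (SE 0.25, adjusted p = 0.347). The members' median was −1.38, beside −0.00744 over all tested genes. The same number, 7, was called in each of the 19 alternatives that gave an interaction, including every fit with 1 mouse left out.

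**Figure D2:**
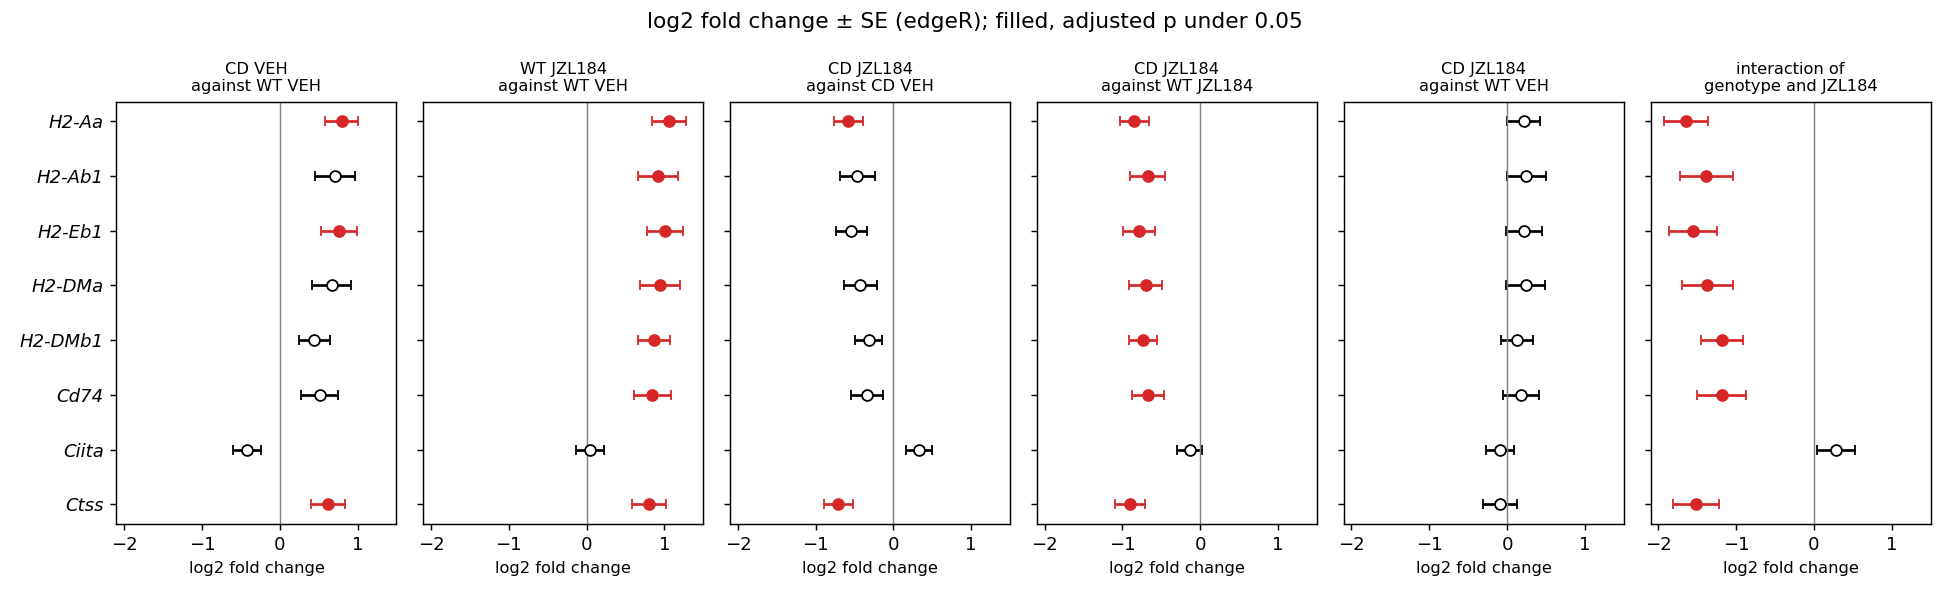
log2 fold change with its standard error for the 8 class II genes in 5 comparisons of groups and in the interaction of genotype and JZL184, from the edgeR fit over 11 mice. Filled red points have an adjusted p under 0.05: 3, 7, 2, 7, 0 and 7 genes from left to right, and Ciita is open in each panel.

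The 7 members other than Ciita varied together from mouse to mouse. Over the 11 mice, Pearson's r between the log2 CPM of 2 of them ranged from 0.897 to 0.992 over the 21 pairs, with a median of 0.953. After each group's mean was subtracted, so that only differences between mice of one group remained, r ranged from 0.803 to 0.997. Ciita had r of 0.0960 to 0.321 with the other 7 across all mice and of 0.481 to 0.795 once the group means were removed. The direction was not shared by all groups, since WT VEH mouse C had more Ciita but less of the other 7 genes than WT VEH mouse D. These are descriptions over 11 points that share libraries, groups and scaling factors.

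The CPM of Ciita per CPM of H2-Aa was computed in each mouse. H2-Aa itself differed between the groups, so the ratio in part restates its differences and is not separate evidence. In WT JZL184 against WT VEH, for example, H2-Aa had a log2 fold change of 1.06 and Ciita of 0.04. The ratio was 0.0586 and 0.0492 in WT VEH, 0.0276, 0.0224 and 0.0311 in WT JZL184, 0.0238, 0.0266 and 0.0201 in CD VEH and 0.0458, 0.0421 and 0.0425 in CD JZL184. WT VEH and CD JZL184 mice all had higher ratios than the WT JZL184 and CD VEH mice. An exact two-sided permutation test of the log2 ratio gave p = 0.1 in each of the 5 pairs of groups (adjusted over the 5, 0.1), which is the smallest p that 2 against 3 or 3 against 3 mice can give. The test therefore cannot tell the 5 pairs apart, and no conclusion is drawn from it. The log2 ratio differed by −1.20 between CD VEH and WT VEH, by −1.004 between WT JZL184 and WT VEH, by 0.90 between CD JZL184 and CD VEH, by 0.70 between CD JZL184 and WT JZL184 and by −0.31 between CD JZL184 and WT VEH.

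**Figure D3:**
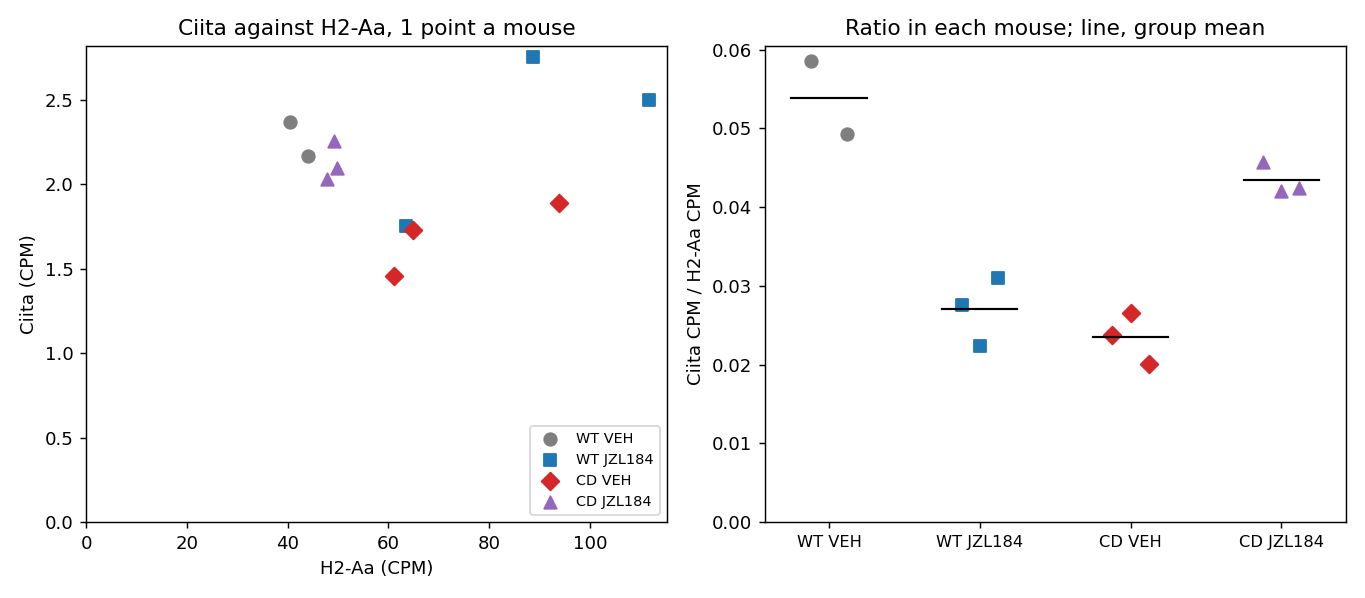
Ciita against H2-Aa in CPM on linear axes from 0 (left) and the ratio of Ciita to H2-Aa CPM (right), with 1 point a mouse and a line at each group mean. The ratio lies between 0.0201 and 0.0311 in the WT JZL184 and CD VEH mice and between 0.0421 and 0.0586 in the WT VEH and CD JZL184 mice.

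Genes that control Ciita and the class II promoters were counted next. The counts given for this and the following gene lists are of genes that passed the test at an adjusted p under 0.05. Of 15 such genes, all of which were tested, 3 were higher in CD VEH than in WT VEH: Irf1 (log2 fold change 0.73, adjusted p = 0.00288), Spi1 (0.70) and Ifngr1 (0.39). Irf1 is an interferon-induced activator of transcription, Spi1 the myeloid factor PU.1 and Ifngr1 the ligand-binding chain of the interferon-γ receptor. With JZL184 in WT mice 4 rose (these 3 and Irf8, by 0.52) and 1 fell (Nfyc, by 0.17). In CD mice 3 fell with JZL184, namely Spi1 by 0.76, Irf1 by 0.58 and Ifngr1 by 0.40. Between treated CD and treated WT mice 5 were lower (Spi1, Irf1, Irf8, Ifngr1 and Creb1) and Nfyc was higher. The interaction was called below 0 for 4 of them, from −0.82 for Irf8 to −1.46 for Spi1, and above 0 for Nfyc at 0.26. These counts of 3, 4, 3, 5 and 4 of 15 stood beside 15%, 15.4%, 17%, 20.1% and 26.2% of all tested genes called in the same directions, and nothing particular to the list is read from them. The RFX subunits Rfx5, Rfxap and Rfxank, the NF-Y subunits Nfya and Nfyb, and Jak1, Jak2 and Ifngr2 passed in no comparison. The median over the 15 genes was 0.12 for vehicle CD hearts against vehicle WT hearts and −0.11 for the interaction.

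Of 18 interferon-γ induced genes, 16 were tested. In CD VEH hearts 10 were higher than in WT VEH hearts and none was lower, with Cxcl9 (a chemokine that draws T cells) at 0.77, Gbp3 at 0.74 and Irf1 at 0.73. With JZL184 in WT hearts 11 rose, among them Cxcl9 by 1.05 and the immunoproteasome gene Psmb8 by 0.76, and with JZL184 in CD hearts 8 fell, among them Cxcl9 by 0.72 and the guanylate-binding protein gene Gbp2 by 0.57. Between the treated groups 9 were lower in CD mice. The interaction was called below 0 for 11: Irf1, Gbp2, Gbp3, Gbp4, Gbp7, Irgm1, Cxcl9, Psmb8, Psmb9, Tap1 and Tap2. Gbp6, Igtp, Iigp1 and Irgm2 passed in no comparison. These counts of 10, 11, 8, 9 and 11 of 16 stood beside 15%, 15.4%, 17%, 20.1% and 26.2% of all tested genes called in the same directions. The list's median was 0.47 for CD VEH over WT VEH, 0.57 for JZL184 in WT hearts and −0.98 for the interaction.

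Other genes of antigen handling were also counted. All 8 lysosomal genes of antigen processing were tested, of which Ifi30 (the thiol reductase that unfolds antigens; log2 fold change 0.59) and Ctsz (0.49) were higher in CD VEH than in WT VEH. With JZL184 in WT hearts Ifi30 rose by 0.75, Ctsz by 0.68, Ctsc by 0.51, Ctsh by 0.34 and Ctsl by 0.25, and in CD hearts Ifi30 fell by 0.76, Ctsz by 0.50 and Ctsh by 0.29. Ctsb passed in the comparison of treated CD with treated WT hearts alone, at −0.20, and Lgmn and Ctsd passed in none. The counts of 2, 5 and 3 of 8 in the first 3 comparisons stood beside 15%, 15.4% and 17% of all tested genes called in the same directions. Nothing particular to the list is read from them. The median of the 8 genes was 0.25, 0.30 and −0.16 in the first 3 comparisons. Among 4 tested genes of co-stimulation and class II turnover, none was called in vehicle CD against vehicle WT hearts. The co-stimulatory genes Cd86 and Cd40 rose by 0.65 and 0.55 with JZL184 in WT hearts and fell by 0.63 and 0.45 in CD hearts. These 2 of the 4 genes stood beside the same shares of 15.4% and 17%. The ubiquitin ligase gene March1, whose product removes class II from the surface, was lower in treated CD than in treated WT hearts at −1.10 and had an interaction of −1.14, and March8 passed in no comparison.

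The 5 members on chromosome 17 lie in the class II cluster at chr17:34119541-34316674 (GENCODE M21, GRCm38), among 12 genes of the table. The other 4 tested genes there are Psmb8 and Psmb9 (immunoproteasome subunits) and Tap1 and Tap2 (the peptide transporter), which serve the class I pathway. Of these, 3 were higher in CD VEH than in WT VEH, 4 rose with JZL184 in WT hearts, 2 fell with JZL184 in CD hearts, 3 were lower in treated CD than in treated WT hearts and 4 had an interaction called below 0, with medians of 0.54, 0.70, −0.38, −0.54 and −1.08. The shares of all tested genes called in the same directions were 15%, 15.4%, 17%, 20.1% and 26.2%. Cd74 on chromosome 18 and Ctss on chromosome 3 lie outside the cluster and carried differences of the same signs as its chain genes in those 5 tests.

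Markers of macrophages moved with the members, and in bulk tissue more cells of a type and more RNA per cell cannot be told apart. Dendritic cell markers, most of which were too sparse to test, are given further below. Of 13 macrophage markers 7 were higher in CD VEH than in WT VEH hearts, 11 rose with JZL184 in WT hearts, 9 fell with JZL184 in CD hearts, 11 were lower in treated CD than in treated WT hearts and 12 had an interaction called below 0. Over all tested genes 15%, 15.4%, 17%, 20.1% and 26.2% were called in the same directions. C1qa, a complement gene, had log2 fold changes of 0.70, 0.81, −0.84 and −0.95 in these 4 comparisons, and Csf1r, the receptor that macrophages need to survive, had values of 0.42, 0.64, −0.42 and −0.64. The summed macrophage markers were 208 and 211 CPM in WT VEH, 258 to 419 CPM in WT JZL184, 274 to 337 CPM in CD VEH and 186 to 211 CPM in CD JZL184, so that both high groups lay above both low groups. The 4 pan-leukocyte markers summed to 28.6 to 30.9, 34.5 to 59.5, 36.5 to 45.6 and 28.0 to 34.1 CPM in the same order of groups.

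The summed 7 members ranged 2.61-fold over the hearts, from 192 to 502 CPM, and the summed macrophage markers ranged 2.26-fold. Their ratio ranged from 0.869 to 1.22, with means of 0.982 in WT VEH, 1.13 in WT JZL184, 1.06 in CD VEH and 1.18 in CD JZL184. Both WT VEH mice lay below all WT JZL184 and CD JZL184 mice in this ratio, and the CD VEH mice spanned the values of all other groups. The part of macrophages in the class II result was not tested.

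Markers of vessel and stromal cells also moved. Of 6 endothelial markers 5 were higher in CD VEH than in WT VEH and 6 rose with JZL184 in WT hearts, 5 fell with JZL184 in CD hearts and 6 had an interaction called below 0. Their sum was 518 and 519 CPM in WT VEH, 805 to 828 CPM in WT JZL184, 666 to 758 CPM in CD VEH and 506 to 586 CPM in CD JZL184. Of 5 smooth muscle and pericyte markers the counts were 4, 4, 3 and 5 in the same tests and directions, and of 5 fibroblast markers 2, 3, 2 and 3. For these 3 short lists, the shares of all tested genes called in those tests and directions were 15%, 15.4%, 17% and 26.2%. The 6 ventricular cardiomyocyte markers went the other way in part, with Myh6 and Actn2 lower in CD VEH than in WT VEH and Myh6, Actn2 and Ryr2 higher, but Myl2 lower, in treated than in vehicle CD hearts. The share of counts in mitochondrial genes was 39.4 to 41.2% in WT VEH, 44.96 to 46.6% in WT JZL184, 43.5 to 44.7% in CD VEH and 36.4 to 40.1% in CD JZL184, which is the same division into high and low groups. The part of these markers and of the mitochondrial share in the class II result was not tested. With mitochondrial genes left out of the fit, the counts of members called were 2, 7, 2, 7, 0 and 7 in the 6 tests.

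Most markers of lymphocytes and dendritic cells were sparse, and T cell markers ranged from 0 to 11 counts per heart for Cd3e to 51 to 94 for Cd4. None of the 7 B cell, 7 T cell, 3 NK cell and 4 neutrophil markers passed the filter on low counts. The B cell markers summed to 2.43 to 2.70 CPM in WT VEH, 2.83 to 4.81 CPM in WT JZL184, 2.60 to 3.44 CPM in CD VEH and 2.01 to 2.15 CPM in CD JZL184, and the T cell markers to 2.14 to 2.96 CPM over all hearts. Of 8 dendritic cell markers 2 were tested, Zbtb46 with 1186 to 1992 and Clec9a with 161 to 245 counts per heart. Zbtb46, a factor of classical dendritic cells and of endothelium, had log2 fold changes of 0.31 for CD VEH over WT VEH and 0.49 for JZL184 in WT hearts. Clec9a, a receptor of cross-presenting dendritic cells, had log2 fold changes of 0.13, 0.27 and −0.34 in the first 3 comparisons. None of these passed edgeR's test (adjusted p = 0.552, 0.226 and 0.0908), whereas its interaction of −0.61 was called. The remaining dendritic cell markers were under the filter, and no call was made for them. Flt3, another defining gene, had 5 to 23 counts per heart.

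**Figure D4:**
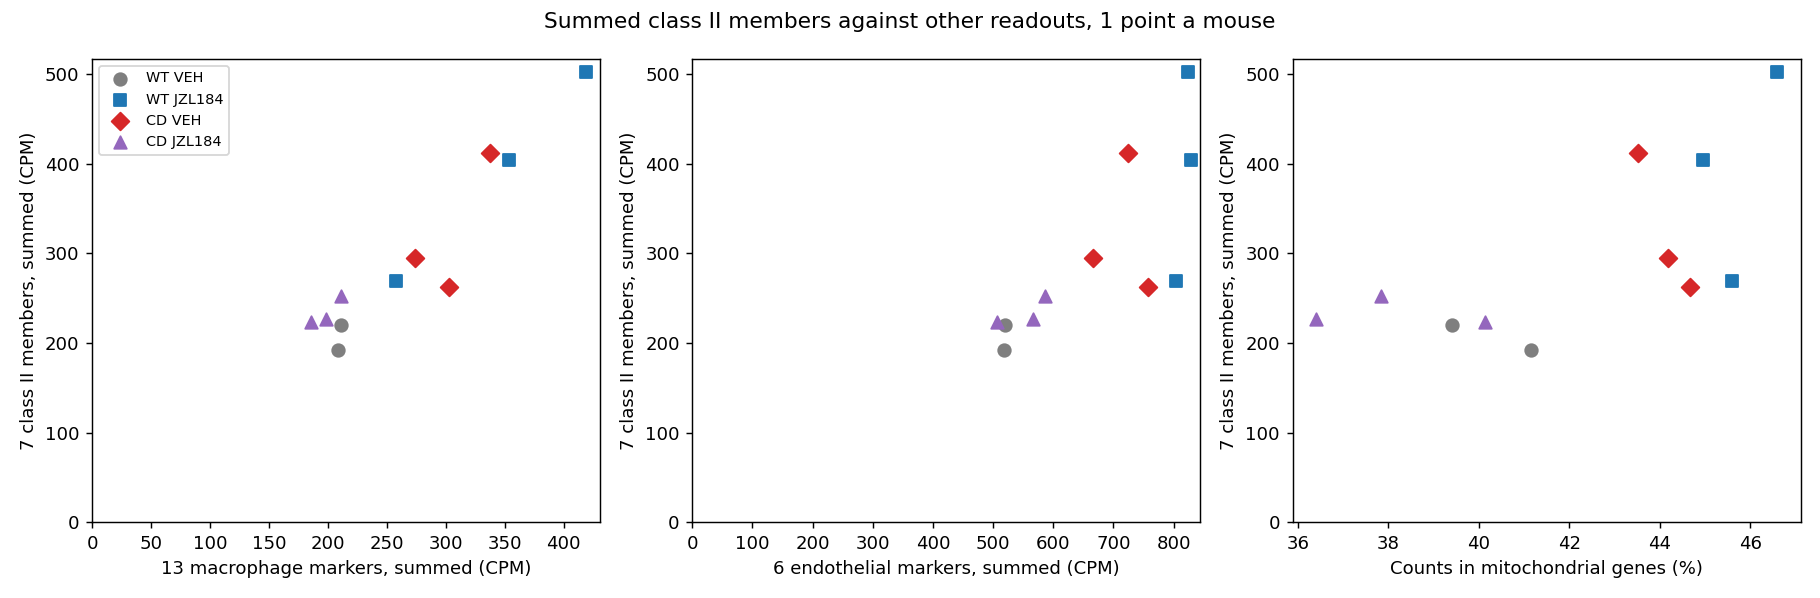
Summed CPM of the 7 class II genes other than Ciita (vertical axis, from 0) against the summed CPM of 13 macrophage markers, the summed CPM of 6 endothelial markers and the percentage of counts in mitochondrial genes, with 1 point a mouse. WT VEH and CD JZL184 mice lie at the lower left of each panel and WT JZL184 and CD VEH mice at the upper right, and WT JZL184 mouse B is highest at 502 CPM.

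Among the other tested genes, the 10 whose log2 CPM most resembled the mean of the members' standardised log2 CPM over the 11 mice were Plekhg5 (Pearson's r 0.979), Mpeg1 (0.976), Irf8 (0.963), Emilin1 (0.960), Csf1r (0.955), Laptm5 (0.951), Prrg2 (0.951), Csf2rb (0.948), Myo7a (0.948) and Prelp (0.946). Mpeg1, which encodes a pore-forming protein of macrophages, averaged 10.3 CPM in WT VEH, 19.3 in WT JZL184, 14.8 in CD VEH and 12.3 in CD JZL184. Against the same mean, the members themselves had r of 0.938 (Ctss) to 0.994 (Cd74), with Ciita apart at 0.327.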

How the data were processed

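Heart RNA from 11 mice, labelled ventricle as source, was sequenced. Per the labels and the methods, the authors quantified transcripts with Salmon 0.7.2, named the build mm10, and used tximport 1.2.0 to get gene-level values on Ensembl release 85. The deposited values are estimated counts per gene, which were rounded here to whole counts. Multi-gene reads were thereby divided by the authors' quantification. Columns were matched to groups by their names. They carry a letter and no replicate number.

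A gene was kept where its log2 CPM averaged 1 or more (11319 of 22608). They were scaled by TMM and tested with edgeR 4.0.16 (R 4.3.3, limma 3.58.1) by the quasi-likelihood test, with 1 mean for each of 4 groups, all 11 mice in one fit and Benjamini-Hochberg adjustment over all tested genes. The common biological coefficient of variation was 9.13%. Correlations used log2 CPM with a prior count of 2. Alternatives were DESeq2 1.42.0, RLE and upper-quartile factors, other filters, a gene length offset, leaving out mitochondrial genes, only the compared groups, and each mouse left out. The tests were first tested on simulated counts.

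The 8 members and all lists were chosen with earlier results of these data known. By rule, the text named the 8 members, other pathway genes that passed in any comparison, the 10 most similar genes and the neighbours in the cluster. Other genes were named for their roles after their values were seen. Promoters came from RefSeq (GRCm38.p6), and gene positions, principal transcripts (APPRIS) and 31-base words from GENCODE M21. Count totals were 69660232 to 92251443 per mouse. Values of some listed genes are not reported here.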

Additional observations from a re-analysis of the deposited data

Results flagged for a closer look

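The effect of JZL184 differed between CD and WT hearts for 7 of the 8 class II genes, by the interaction term of the edgeR fit over 11 mice. Over all tested genes the interaction was called below 0 for 26.2% and above 0 for 25.3%. The interaction (log2 fold change in CD mice minus that in WT mice) was −1.64 for H2-Aa (adjusted p = 0.000782), −1.55 for H2-Eb1 (0.00179), −1.51 for Ctss (0.00139), −1.38 for H2-Ab1 (0.00547), −1.37 for H2-DMa (0.00525), −1.18 for Cd74 (0.00871) and −1.18 for H2-DMb1 (0.00366). The adjusted p of these genes reached at most 0.0452, for Cd74, over the 19 alternatives. No group held 4 or more mice, so single mice were not tested as outliers.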

How the results depend on the processing

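The count of members called was 3, 7, 2, 7, 0 and 7 in CD VEH against WT VEH, WT JZL184 against WT VEH, CD JZL184 against CD VEH, CD JZL184 against WT JZL184, CD JZL184 against WT VEH and the interaction. With a gene length offset the first became 1, the third 1 and the fourth 5, and with only the compared groups in the fit the first became 6 and the third 4, each of 7 members tested since Ciita did not pass the filter there. The first became 2 with RLE factors and 4 with upper-quartile factors or with DESeq2. With 1 mouse left out, the counts in either direction ranged from 0 to 7, 0 to 7, 0 to 6, 4 to 7, 0 to 0 and 7 to 7. Where 1 WT VEH mouse remained, it was assumed to vary like the other groups. Of 950 values of single members under alternatives, 865 kept direction and side of the threshold, 58 lost the call, 22 gained it and 5 changed sign. The sign changes came with 1 mouse left out and concerned Ciita in WT JZL184 against WT VEH (range −0.0939 to 0.218), Ciita in CD JZL184 against WT JZL184 (−0.307 to 0.00471) and Ctss in CD JZL184 against WT VEH (−0.265 to 0.110), and none of these 5 values passed the test. Upper-quartile scaling moved the share of called genes that were higher from 49.2% to 61.5% in CD VEH against WT VEH and from 52.5% to 64.0% in WT JZL184 against WT VEH. DESeq2 called 50 genes higher and 55 lower in CD JZL184 against WT VEH, where edgeR called 5 and 16. The cause of these differences was not tested. TMM factors from all genes were added after seeing the data and gave 4 members in the first comparison. No paired analysis was possible because the table's columns carry a letter, which is in no sample label, and not the replicate numbers of the labels. The 2 WT VEH mice limit each comparison that uses them.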

Other observations

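A further 4 genes of class II assembly and peptide editing were in the table but under the filter, and no call was made for them. H2-Ob, which encodes the β chain of H2-O, a brake on H2-DM, had 44 to 91 counts per heart, and its α chain gene H2-Oa had 2 to 22. H2-DMb2 had 23 to 51 counts and H2-Eb2 had 0 to 7. The summed CPM of the 4 genes was 1.10 and 1.26 for the WT VEH mice, 1.04 to 2.12 for the WT JZL184 mice, 1.52 to 1.64 in CD VEH and 1.06 to 1.17 in CD JZL184. The WT JZL184 mice spanned the values of the other groups, and the CD VEH mice lay above both WT VEH and all CD JZL184 mice.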
